A study of Mus musculus with 6 samples.

Results

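The genes described here are 36 leukocyte and macrophage genes, chosen by name as genes of myeloid, T and B cells outside MHC class II, among 18193 genes with a probe set. They were represented by 60 of the 45101 probe sets of the array, counting the probe sets whose annotated symbol is one of the 36. By lineage, 8 of them mark leukocytes in general, 18 monocytes and macrophages, 2 neutrophils, 5 T and natural killer (NK) cells and 3 B cells. The rule uses no measured value, and the genes were listed with earlier results of the same arrays known.

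The arrays held RNA of glomeruli, the capillary tufts that filter blood in the kidney, isolated with magnetic beads from females at 6 weeks of age. A Pod-Cre transgene, driven by the podocin promoter of podocytes, the epithelial cells around the capillaries, had excised a floxed von Hippel-Lindau locus (Vhl) in 3 of the mice. These arrays are called Vhl-deleted here, and 3 wild-type littermates were the controls, with 1 array per mouse. The Vhl-deleted mice had been chosen for urinary albumin at or below the mean of their wild-type littermates, measured at 4 weeks. The labels do not say whether the controls carried the floxed locus or the Cre, and the endothelial, mesangial and blood-derived cells of the tuft are not targets of the podocin promoter. VHL is part of the ubiquitin ligase that marks hypoxia-inducible factors for degradation.

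Leukocytes are the blood-derived cells of the immune system. Macrophages arise from embryonic precursors or from circulating monocytes, depend on signals through the CSF1 receptor, and in the kidney lie mostly in the tissue between tubules, with few inside the healthy glomerulus. Glomeruli isolated from a perfused kidney can carry leukocyte RNA from cells inside the capillaries, from cells of the tuft and from interstitium that adheres to the preparation. In RNA of a whole preparation, fewer cells of a type and less RNA per cell cannot be told apart.

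All values start from MAS5 signals, a linear brightness per probe set, with every array scaled to the same trimmed mean of 500.0. Vhl itself had signals of 809, 665 and 707 in wild-type replicates 1 to 3 and of 611, 619 and 606 in the Vhl-deleted replicates, a log2 change of -0.23 (limma adjusted p = 0.943). Other cells of the tuft keep the gene, so this is a weak check of the labels. Wild-type replicate 3 stood apart from the other arrays. The mean log2 level of 21 tubule genes was 10.70 in it and lay between 12.08 and 12.86 in the other 5 arrays, and its mean over 15 podocyte genes was 12.80, against 12.10 to 12.43 elsewhere. Changes below are log2 differences of signal + 28, Vhl-deleted minus wild-type, and 28 is the 25th percentile of all signals. Each comparison rests on 3 arrays per group, and that number limits its precision.

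Promoter sequence was available for 27 of the 36 genes in RefSeq windows of 300 bases on GRCm38.p6, with 250 bases before the annotated start and 50 after it. PU.1, encoded by the member gene Spi1, is the ETS-family factor that drives myeloid gene expression and binds purine-rich sites around GGAA. The 150 bases before the start are shown for 4 genes whose Vhl-deleted arrays all lay above the wild-type arrays in the results below. Csf1r and Cd14 also met this condition, but windows on their chromosome were left out of the printing. The sequences are in lower case, 5′ to 3′ on the gene's strand, with the letters AGGAAGT or their reverse complement in capitals.
Ptprc: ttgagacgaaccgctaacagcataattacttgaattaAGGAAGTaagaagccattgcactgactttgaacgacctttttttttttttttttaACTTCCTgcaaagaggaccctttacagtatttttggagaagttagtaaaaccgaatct
Ctss: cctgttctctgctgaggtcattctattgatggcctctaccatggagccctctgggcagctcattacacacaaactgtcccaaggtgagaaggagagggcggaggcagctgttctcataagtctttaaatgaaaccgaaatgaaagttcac
Mpeg1: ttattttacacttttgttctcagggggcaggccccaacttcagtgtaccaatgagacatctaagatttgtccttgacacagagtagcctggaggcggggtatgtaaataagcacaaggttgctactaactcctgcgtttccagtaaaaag
Cx3cr1: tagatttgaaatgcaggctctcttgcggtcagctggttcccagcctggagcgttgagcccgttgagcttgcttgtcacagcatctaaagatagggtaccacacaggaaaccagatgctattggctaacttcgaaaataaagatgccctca
These are chr1:138175306-138175455 (minus strand, the first of 2 Ptprc windows), chr3:95526636-95526785 (plus strand), chr19:12460620-12460769 (plus strand) and chr9:120068297-120068446 (minus strand). The Ptprc stretch holds AGGAAGT at 113 bases before the start and its complement at 58 bases before it. In the Ctss window the complement begins 2 bases before the start and runs past the printed end, and neither the Mpeg1 nor the Cx3cr1 window holds these letters.

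Searched on both strands, AGGAAGT occurred in a window of 10 of the 27 member genes (Cd3e, Cd53, Cd79a, Ctss, Fcgr1, Lyz2, Mrc1, Ptprc, S100a8 and Vav1), or 37.0%, against 10.7% of all 27025 genes with such windows. Its longer form GAGGAAGT was in windows of 4 member genes (14.8%, against 3.69% of all genes), and the shorter GGAAGT, which both contain, in 15 (55.6%, against 26.5%). The RUNX letters TGTGGT were in 7 (25.9%, against 18.9%) and TATAAA in 5 (18.5%, against 15.7%). The core of the hypoxia response element, ACGTG, occurred in windows of 3 member genes, Cd163, Cd3e and Lcp1 (11.1%, against 21.8% of all genes). A match describes letters only, and these shares carry no test.

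Leukocyte genes lay above the wild-type level in most cases, and no single gene passed the test. Of the 36 genes, 31 had a positive change when every gene with a probe set was fitted, where 51.5% of all 18193 genes did, and the median change of the 36 was 0.33 against 0.01 for all genes. All were read on the same 6 arrays and can move together, so they are not 36 separate readings of the genotype. Their mean log2 level was 7.54, 7.39 and 7.40 in wild-type replicates 1 to 3. In Vhl-deleted replicates 1 to 3 it was 7.69, 7.53 and 7.91, so the groups overlapped. Without wild-type replicate 3, 27 of the 36 were above 0 (48.8% of all genes, median 0.28), and without Vhl-deleted replicate 3, 28 were (49.9% of all genes, median 0.23). None of the 36 reached an adjusted p of 0.05 in limma in this fit, while 0.0715% of all genes passed in the higher direction, 0.0055% in the lower and 0.077% in either. The lowest in the main fit, described next, was that of Mpeg1, with a limma adjusted p of 0.635. At an unadjusted p under 0.05, 5 of the 36 were higher and 0 lower, where 2.66% of all genes were higher and 2.43% lower. The 3 Vhl-deleted arrays all lay above the 3 wild-type arrays for 6 of the 36 genes (Ptprc, Csf1r, Cd14, Cx3cr1, Mpeg1 and Ctss), where this held for 5.32% of all genes, and all below for 1 (Cd3e), where it held for 5.02%.

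In the main fit, which kept probe sets in the upper 50% by mean signal (above 100.2), 22 of the 36 genes were tested among 11167. Of these 22, 20 had a positive change (50.9% of all genes), 4 had an unadjusted p under 0.05 in the higher direction (2.52% of all genes) and 0 in the lower (2.4%), and 5 did not overlap in the higher direction (5.05% of all genes) and 0 in the lower (5.61%). Their median change was 0.34 and that of all genes was 0.00. None was among the genes that passed, which were 0.134% of all genes, with 0.125% in the higher direction and 0.00895% in the lower. The wild-type mean of 4 of the 22 (Rac2, Vav1, Ccr2 and Spi1) lay under the filter, so these entered through their Vhl-deleted arrays. Ccr2 was the last gene inside the filter, with a mean of 100.7 over 6 arrays, and Cd8a the first outside, at 73.5.

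**Figure D1:**
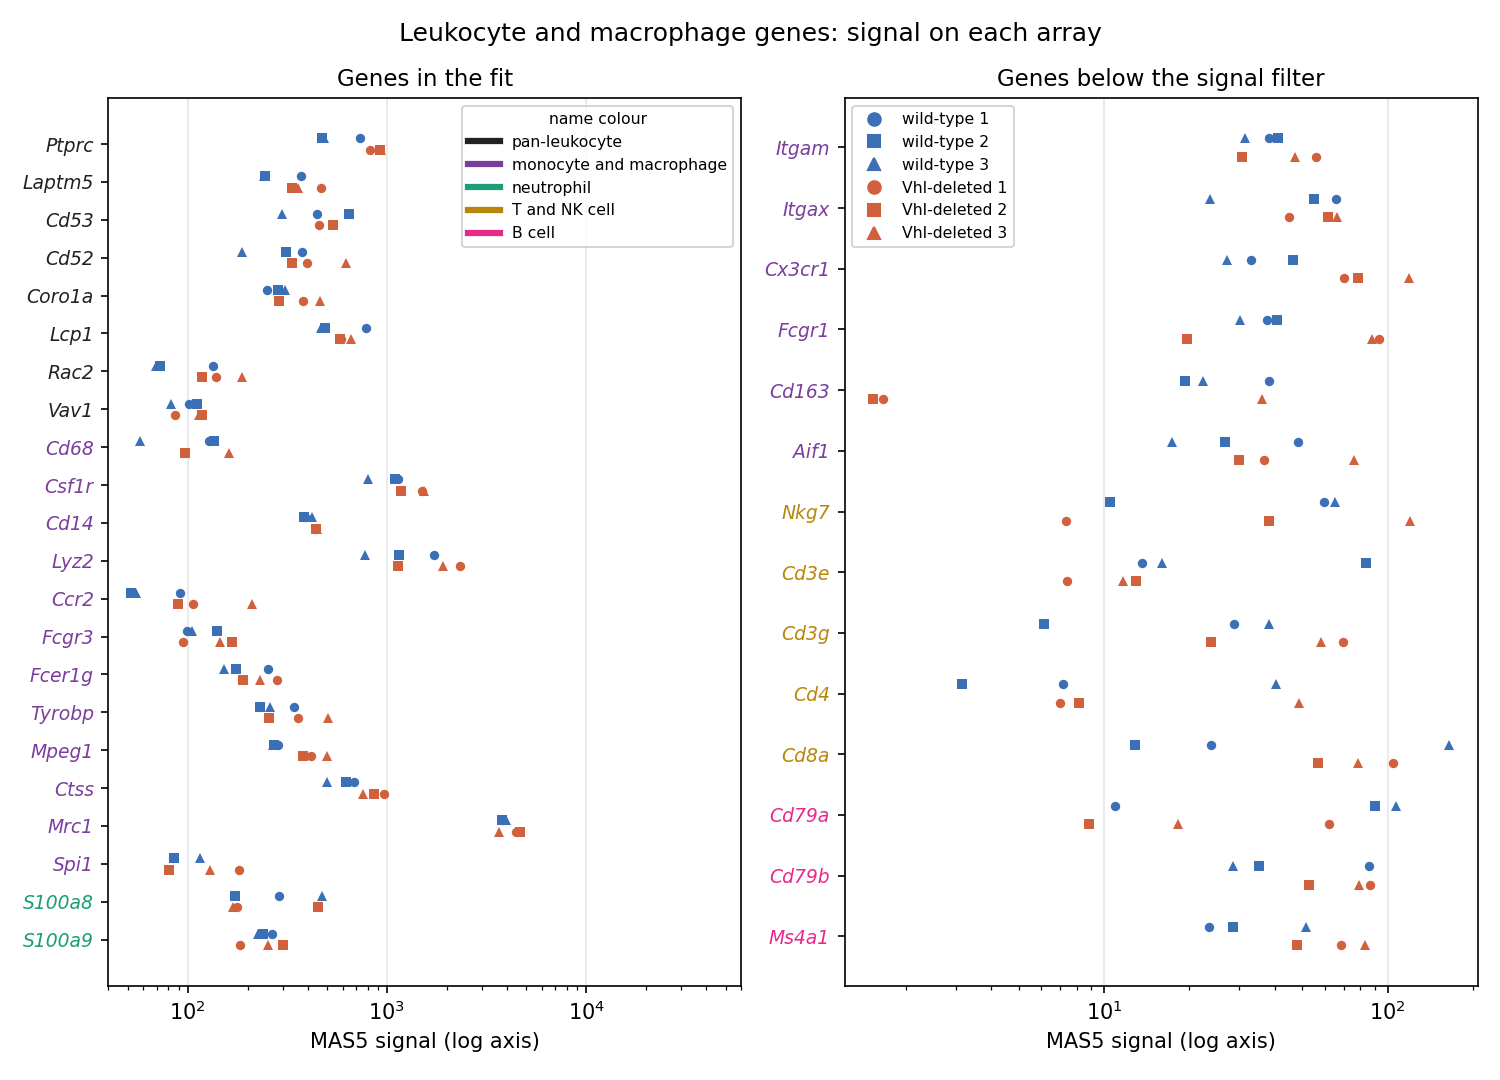
MAS5 signal on a logarithmic axis for each of the 36 genes (brightest probe set) on each of the 6 arrays, wild-type in blue and Vhl-deleted in orange with 1 symbol shape per replicate number, the 22 genes in the fit on the left and the 14 below the signal filter on the right. The orange points of Ptprc, Csf1r, Mpeg1, Ctss, Cd14 and Cx3cr1 lie wholly to the right of the blue ones, while the T, NK and B cell genes scatter at or below a signal of 164.

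The pan-leukocyte genes had positive changes in 8 of 8 cases, with a median of 0.39. Ptprc encodes CD45, the receptor tyrosine phosphatase on nearly all nucleated blood cells. Its signals were 729, 473 and 485 in wild-type replicates 1 to 3 and 826, 928 and 939 in Vhl-deleted replicates 1 to 3. Wild-type replicate 1 was high among the controls and still below every Vhl-deleted array. The means were 562 ± 145 and 897 ± 62.4 (SD, n = 3), a change of 0.67 (95% interval 0.25 to 1.10, limma adjusted p = 0.719). Its other probe set had a mean signal of 27.0, at about the pseudocount, and a change of -0.05.

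Laptm5, a lysosomal membrane protein of blood cells, had signals of 368, 244 and 242 on the wild-type arrays and 468, 334 and 357 on the Vhl-deleted ones, with a change of 0.42 (95% interval -0.07 to 0.90). Wild-type replicate 1 lay above 2 of the Vhl-deleted arrays. Its 2 other probe sets above the filter had changes of 0.09 and -0.00, so the probe sets of this gene disagreed. Coro1a, an actin-binding coronin of leukocytes, had signals of 249.8, 285 and 308 against 377, 289 and 462, a change of 0.37. A second Coro1a probe set read 304, 182 and 198 against 353, 349.8 and 374, a change of 0.63 with no overlap, so both of its bright probe sets had positive changes.

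Cd52, a small glycoprotein anchored on lymphocytes and monocytes, was at 377, 313 and 188 on the wild-type arrays and 396, 335 and 624 on the Vhl-deleted ones, a change of 0.58 (95% interval -0.12 to 1.29). Vhl-deleted replicate 3 was the highest array and wild-type replicate 3 the lowest, and the groups overlapped. Rac2, the Rac GTPase of blood cells, was at 135, 72.6 and 69.2 against 139, 118 and 187, a change of 0.57, with wild-type replicate 1 inside the range of the Vhl-deleted arrays. The other 3 genes of this group were Cd53, a tetraspanin (0.19), Lcp1, the actin bundler L-plastin (0.10), and Vav1, an exchange factor for Rac (0.08). Their groups overlapped, and without wild-type replicate 3 their changes were -0.07, -0.03 and -0.01. A second Lcp1 probe set above the filter read 352, 436 and 403 against 514, 415 and 495, a change of 0.24 with overlap.

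All 12 monocyte and macrophage genes in the main fit had positive changes, with a median of 0.34, and over all 18 genes of the lineage 17 were positive with a median of 0.33. Mpeg1 encodes perforin-2, a pore-forming protein of macrophages. It read 285, 271 and 269 on the wild-type arrays and 414, 380.3 and 503 on the Vhl-deleted ones. The controls lay close together, with means of 275 ± 8.54 and 433 ± 63.5 (SD, n = 3), a change of 0.59 (95% interval 0.26 to 0.93, limma adjusted p = 0.635). Ctss, the lysosomal protease cathepsin S that trims the MHC class II invariant chain, read 686, 626 and 498 against 969, 864 and 755. That is a change of 0.50 (95% interval 0.13 to 0.87, limma adjusted p = 0.813), with every Vhl-deleted array above every control.

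Csf1r, the receptor for the macrophage growth factors CSF1 and IL-34, had signals of 1130.2, 1104 and 802 on the wild-type arrays and 1502, 1177 and 1531 on the Vhl-deleted ones. The groups were separated by the gap between wild-type replicate 1 and Vhl-deleted replicate 2, and the change was 0.47 (95% interval 0.06 to 0.88, limma adjusted p = 0.943). A second Csf1r probe set also had a change of 0.47 without overlap, and the remaining one a change of 0.17 with overlap. Cx3cr1, the fractalkine receptor of monocytes and tissue macrophages, read 33.1, 46.6 and 27.2 against 70.1, 78.5 and 119. These are dim signals below the filter. In the fit without a filter the change was 0.87 (95% interval 0.28 to 1.47, limma adjusted p = 0.780), and a dimmer second probe set had a change of 0.29.

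Ccr2, the receptor that draws monocytes from blood toward CCL2, read 91.3, 52.0 and 54.8 on the wild-type arrays and 107, 89.0 and 210.3 on the Vhl-deleted ones. Wild-type replicate 1 lay just above Vhl-deleted replicate 2. The change was 0.75 (95% interval -0.02 to 1.52, limma adjusted p = 0.943). The 3 other Ccr2 probe sets, all under the filter, had changes of 0.47, 0.80 and 0.26, and the second of these, at 83.3, 47.9 and 32.3 against 104, 105 and 127, did not overlap. Cd14, a co-receptor for bacterial lipopolysaccharide, was at 389.5, 384 and 421 against 443, 441 and 445. Its groups did not overlap but lay close, with a change of 0.15 (95% interval -0.12 to 0.41).

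The Fc receptor genes and their adaptors overlapped between the groups. Fcgr3, a low-affinity receptor for IgG, had a change of 0.18, and Fcer1g, the signalling chain shared by several Fc receptors, one of 0.25. Fcgr1, the high-affinity IgG receptor, read 37.6, 40.6 and 30.1 against 92.9, 19.6 and 88.0, so 2 Vhl-deleted arrays were above and 1 below all controls. Tyrobp, the adaptor DAP12 of myeloid and NK receptors, was at 343, 231 and 258 on the wild-type arrays and 357, 256 and 505 on the Vhl-deleted ones. Vhl-deleted replicate 3 alone was clearly above the controls, and the change was 0.36 (95% interval -0.24 to 0.97).

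Lyz2, the lysozyme of myeloid cells, read 1729, 1149 and 780.0 on the wild-type arrays and 2336, 1136 and 1904 on the Vhl-deleted ones. The arrays of each group were far apart, the groups overlapped, and the change was 0.56 (95% interval -0.26 to 1.37). Cd68, a lysosomal glycoprotein of macrophages, was at 128, 136 and 57.6 against 95.3, 97.2 and 160.4. Wild-type replicate 3 was the lowest array, and the change was 0.14 with it and -0.16 without it. Spi1, which encodes PU.1, was at 84.9, 85.4 and 115 against 180.1, 80.4 and 129, a change of 0.32, with Vhl-deleted replicate 2 the lowest of all arrays.

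Mrc1, the mannose receptor CD206, is made by tissue macrophages and also by some endothelial cells. Its signals were 3785, 3763 and 3948 on the wild-type arrays and 4457, 4641 and 3669.9 on the Vhl-deleted ones, a change of 0.14 (95% interval -0.13 to 0.42). Cd163, the haemoglobin scavenger receptor of resident macrophages, gave no usable level. It read 38.1, 19.3 and 22.4 against 1.66, 1.53 and 36.1, and 4 of its 6 arrays were under the pseudocount. Itgam (0.15) and Itgax (0.21), the integrins CD11b and CD11c, and Aif1 (0.35), the calcium-binding protein IBA1, were below the filter, and their groups overlapped.

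**Figure D2:**
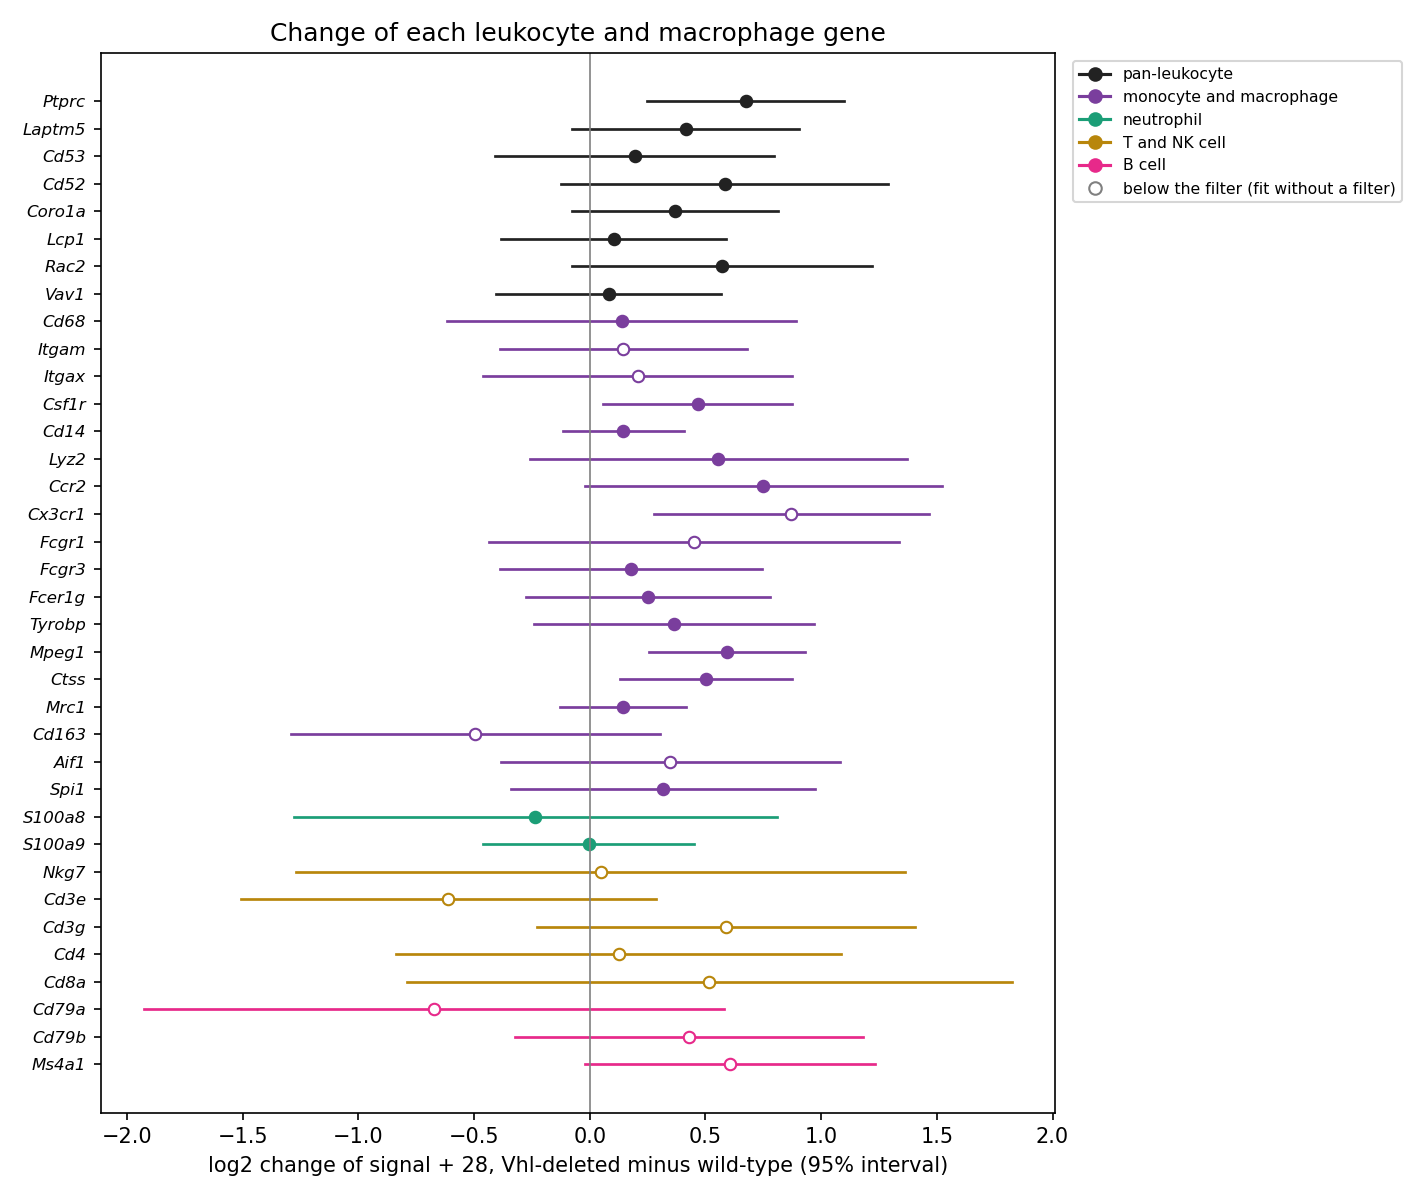
Log2 change of each of the 36 genes, Vhl-deleted minus wild-type, with the 95% interval from limma and colour by lineage, where filled points come from the main fit and open points from the fit without a filter. The intervals of Ptprc, Csf1r, Mpeg1, Ctss and Cx3cr1 lie above 0, and those of the other 31 genes include 0.

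The neutrophil pair had no clear change in either direction. S100a8 and S100a9 encode the subunits of calprotectin, the abundant calcium-binding complex of neutrophils. S100a8 was at 286, 172 and 472 on the wild-type arrays and 177, 449 and 169 on the Vhl-deleted ones, a change of -0.23 (95% interval -1.28 to 0.81). S100a9 was at 264, 239.7 and 224 against 184, 301 and 252, a change of -0.01 (95% interval -0.46 to 0.45). S100a8 ranged nearly as widely within each group as over all arrays, and Vhl-deleted replicate 2 was the highest Vhl-deleted array for both genes.

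All 8 T, NK and B cell genes were below the signal filter, so their changes come from the fit without it. Cd3e, a chain of the T cell receptor complex, read 13.7, 83.6 and 16.0 on the wild-type arrays and 7.40, 12.9 and 11.6 on the Vhl-deleted ones, with 5 of 6 arrays under 28 and a change of -0.61. Cd3g, another chain of this complex, read 28.8, 6.12 and 38.2 against 69.6, 23.9 and 58.5, a change of 0.59 in the other direction. Cd4, the co-receptor of helper T cells, had 4 arrays under 28 and a change of 0.12.

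Cd8a, the co-receptor of cytotoxic T cells, read 23.9, 12.9 and 164 on the wild-type arrays and 104, 56.7 and 78.6 on the Vhl-deleted ones, and wild-type replicate 3 held the highest value. Its change was 0.52 with the brightest probe set, and the 4 other Cd8a probe sets had changes between -0.54 and 0.03. Nkg7, a granule membrane protein of NK and cytotoxic T cells, had a change of 0.05, with its highest array (Vhl-deleted replicate 3, 120.3) and its lowest (Vhl-deleted replicate 1, 7.31) in 1 group.

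The signalling chains of the B cell receptor differed in sign. Cd79a was at 10.9, 90.0 and 107 on the wild-type arrays and 61.9, 8.86 and 18.2 on the Vhl-deleted ones (-0.67), and Cd79b at 85.7, 35.3 and 28.6 against 86.6, 52.7 and 79.2 (0.43). Ms4a1, which encodes CD20, was at 23.5, 28.4 and 51.7 against 68.6, 48.0 and 83.3, a change of 0.61 (95% interval -0.02 to 1.23), with Vhl-deleted replicate 2 below wild-type replicate 3. The intervals of all 8 lymphocyte genes included 0, so no difference in them was detectable at these signals.

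**Figure D3:**
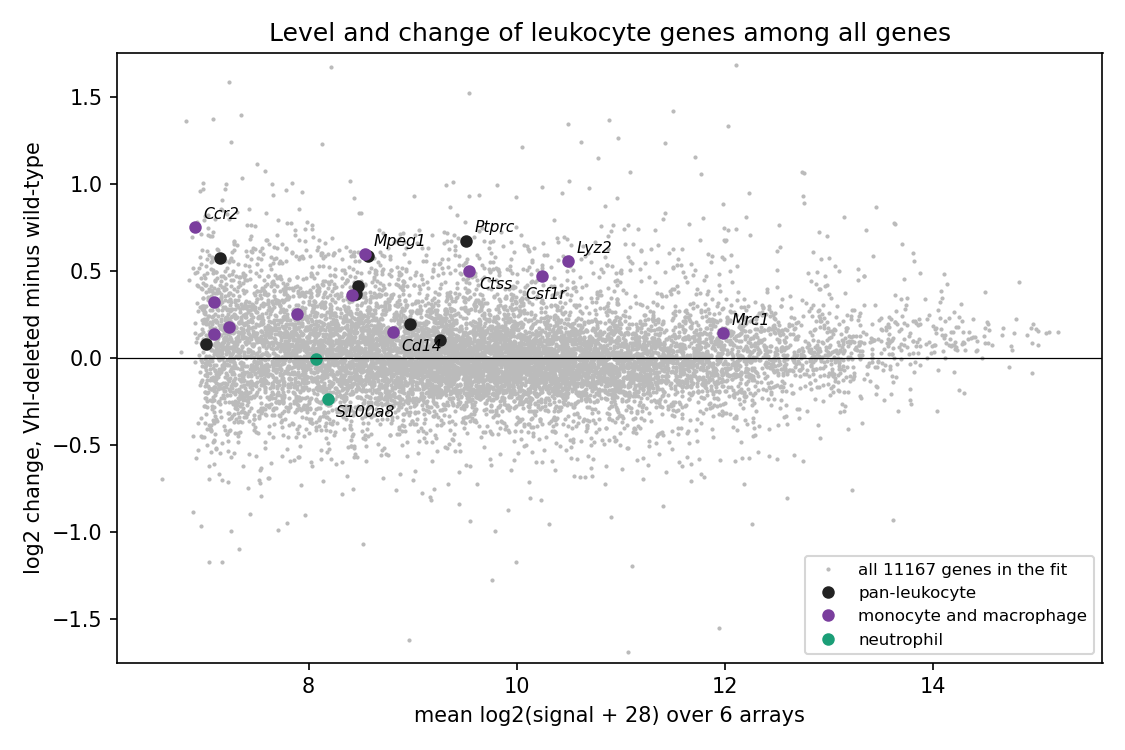
Mean log2(signal + 28) over 6 arrays against log2 change, Vhl-deleted minus wild-type, for all 11167 genes in the fit (grey) and the 22 leukocyte genes among them (coloured by lineage), with 13 genes outside the vertical axis. The coloured points lie above 0 except for the neutrophil pair, within the spread of the grey points at their level.

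Other leukocyte genes outside the 36 were read from lists drawn up from general knowledge of cell markers, with earlier results of the same arrays known. Of 17 further pan-leukocyte genes fitted without the filter, 16 had a change above 0, and their median change was 0.24. Here 0 passed over all genes, and 3 had an unadjusted p under 0.05 in the higher direction (2.66% of all genes) and 0 in the lower (2.43%). The groups did not overlap in the higher direction for 5 of the 17 (5.32% of all genes) and in the lower for 1 (5.02%). The main fit held 14 of them, and 3 of the 14 (Evi2a, Selplg and Nckap1l) had a wild-type mean under the filter and entered through their Vhl-deleted arrays. The lowest p-values in it belonged to the transmembrane protein gene Evi2a (0.79), the shared integrin chain gene Itgb2 (0.61) and the selectin ligand gene Selplg (0.66), with limma adjusted p of 0.835, 0.883 and 0.943. The adaptor gene Sla was at -0.57, the 1 gene of the 14 with an unadjusted p under 0.05 in the lower direction (2.4% of all genes). Itgb2, the partner of CD11b and CD11c on the cell surface, was at 310.2, 258 and 182 on the wild-type arrays and 374, 349 and 453 on the Vhl-deleted ones, without overlap.

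Of 33 further macrophage and dendritic cell genes fitted without the filter, 27 had a change above 0, and their median change was 0.39. Here 0 passed over all genes, 4 had an unadjusted p under 0.05 in the higher direction (2.66% of all genes) and 0 in the lower (2.43%), and 4 did not overlap in the higher direction (5.32%). The main fit held 16 of them, and Cd209a and Pld4 entered it with a wild-type mean under the filter. Ly86, the MD-1 partner of a Toll-like receptor homologue, was at 120.0, 118 and 94.2 against 211, 172 and 238 (0.75, limma adjusted p = 0.645). Cybb, the catalytic subunit of the phagocyte oxidase, was at 151, 119 and 108 against 227, 182 and 245 (0.68, limma adjusted p = 0.735). Lst1, a myeloid transmembrane protein gene, had a change of 0.58 (limma adjusted p = 0.713). These 3 were named for the lowest p-values of the list, so their lack of overlap follows largely from that choice. Of all 16 in the main fit, 4 did not overlap in the higher direction (5.05% of all genes) and 0 in the lower (5.61%). Adgre1, which encodes the macrophage antigen F4/80, was in the fit at -0.13, and was singled out after its value was seen.

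Of a list of 9 genes of receptor ligands and inflammatory cytokines, 4 were in the fit, with a median of -0.01 and 0 passing. Csf1, the growth factor bound by Csf1r, was at 1499, 1808 and 1738 on the wild-type arrays and 1389, 1105 and 1557 on the Vhl-deleted ones, a change of -0.32 (95% interval -0.68 to 0.04, limma adjusted p = 0.943). Il34, the other ligand of Csf1r, was at -0.12. Cx3cl1, the ligand of Cx3cr1, was at 0.09 and Il1b, an inflammatory cytokine gene, at 0.49. Among 6 adhesion genes of the vessel wall in the fit, Vcam1, which leukocytes bind through an integrin, was at 638, 699.5 and 427 against 948, 781 and 876, a change of 0.57 (limma adjusted p = 0.886). Icam1 was at 0.26 and Jam2 at -0.29, and 0 of the 6 passed.

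MHC class II genes, which antigen-presenting cells use and Ctss serves, had changes of 0.61 to 1.02 over 5 genes in the fit, and 0 passed. Cd74, the invariant chain, was at 1049, 873 and 1055 on the wild-type arrays and 1586, 1674 and 3138 on the Vhl-deleted ones.

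Levels of other cell types differed between the same arrays. Over the 8 pan-leukocyte genes the mean log2 level was 8.49, 8.24 and 7.99 in wild-type replicates 1 to 3 and 8.56, 8.50 and 8.78 in Vhl-deleted replicates 1 to 3. Over the 12 monocyte and macrophage genes it was 8.66, 8.51 and 8.34 against 8.92, 8.67 and 9.01. Both sets were lowest in wild-type replicate 3 and highest in Vhl-deleted replicate 3, the arrays with the lowest (10.70) and highest (12.86) tubule level. All 21 of 21 tubule genes in the fit were above 0, with a median change of 0.51. Their array means were 12.30, 12.60 and 10.70 in wild-type replicates 1 to 3 and 12.16, 12.08 and 12.86 in Vhl-deleted replicates 1 to 3. Wild-type replicates 1 and 2 had a higher tubule level than Vhl-deleted replicates 1 and 2. In the leukocyte sets, wild-type replicate 1 and Vhl-deleted replicate 2 were nearly equal, at 8.49 and 8.50 (pan-leukocyte) and 8.66 and 8.67 (monocyte and macrophage). How tubule and leukocyte levels relate was not tested. The lowest signal of any of the 21 on any array was 151. Of the erythroid genes only Slc4a1 (0.62) and Alas2 (-0.40) were in the fit, with a list mean of 6.95 in wild-type replicate 3 and 7.64 to 8.22 elsewhere. Only Slc4a1 was lowest in that array, at 46.9 against 154 to 240 elsewhere. Alas2 was at 177 there and at 172 in Vhl-deleted replicate 1.

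**Figure D4:**
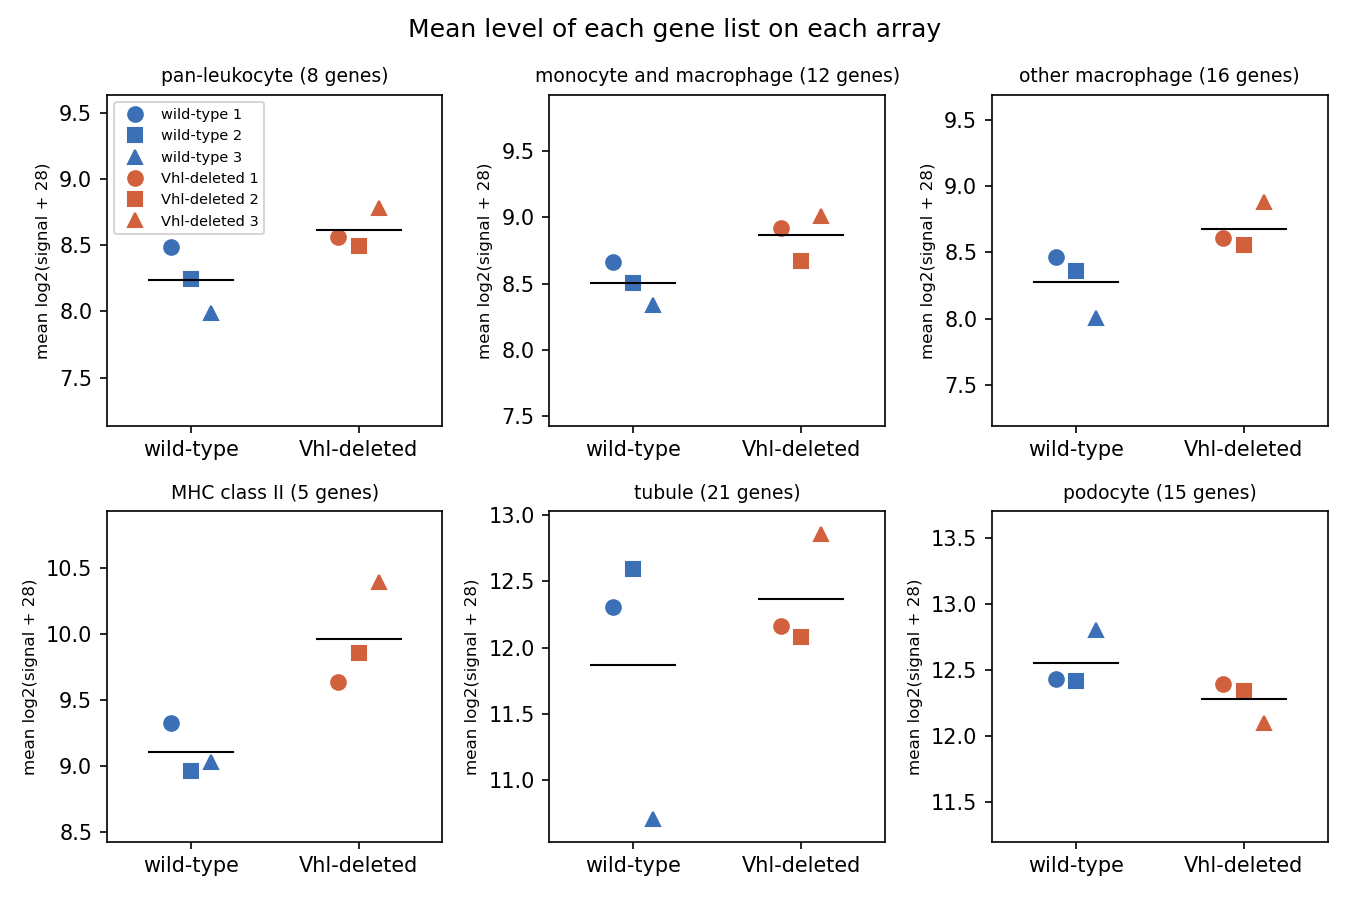
Mean log2(signal + 28) of 6 gene lists on each array, wild-type in blue and Vhl-deleted in orange with 1 shape per replicate number, horizontal lines for the group means and vertical axes of equal span. Wild-type replicate 3 (blue triangle) is lowest in the tubule panel at 10.70 and in both leukocyte panels of the 36 genes, and the Vhl-deleted arrays lie above the wild-type arrays in the MHC class II panel.

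With the tubule level of each array as a covariate, the median of the 22 genes was 0.30, and without wild-type replicate 3 it was also 0.30, and 18 and 17 of the 22 were above 0. Ptprc was then at 0.62 and 0.58, Mpeg1 at 0.55 and 0.58, and Ctss at 0.44 and 0.37. The changes of S100a8 (0.10 and 0.10), Cd68 (-0.14 and -0.16) and Cd53 (-0.02 and -0.07) turned sign from -0.23, 0.14 and 0.19 with all arrays and no covariate. Lyz2 (0.34 and 0.28), Cd52 (0.33 and 0.32) and Csf1r (0.34 and 0.31) kept theirs, from 0.56, 0.58 and 0.47. The count of genes with an unadjusted p under 0.05 in the higher direction was 4 with the covariate (3.82% of all genes) and 3 without wild-type replicate 3 (3.14%). Leaving out wild-type replicate 1 gave 9 (2.44%), leaving out Vhl-deleted replicate 2 gave 8 (1.98%), and leaving out Vhl-deleted replicate 1 gave 2 (1.47%).

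**Figure D5:**
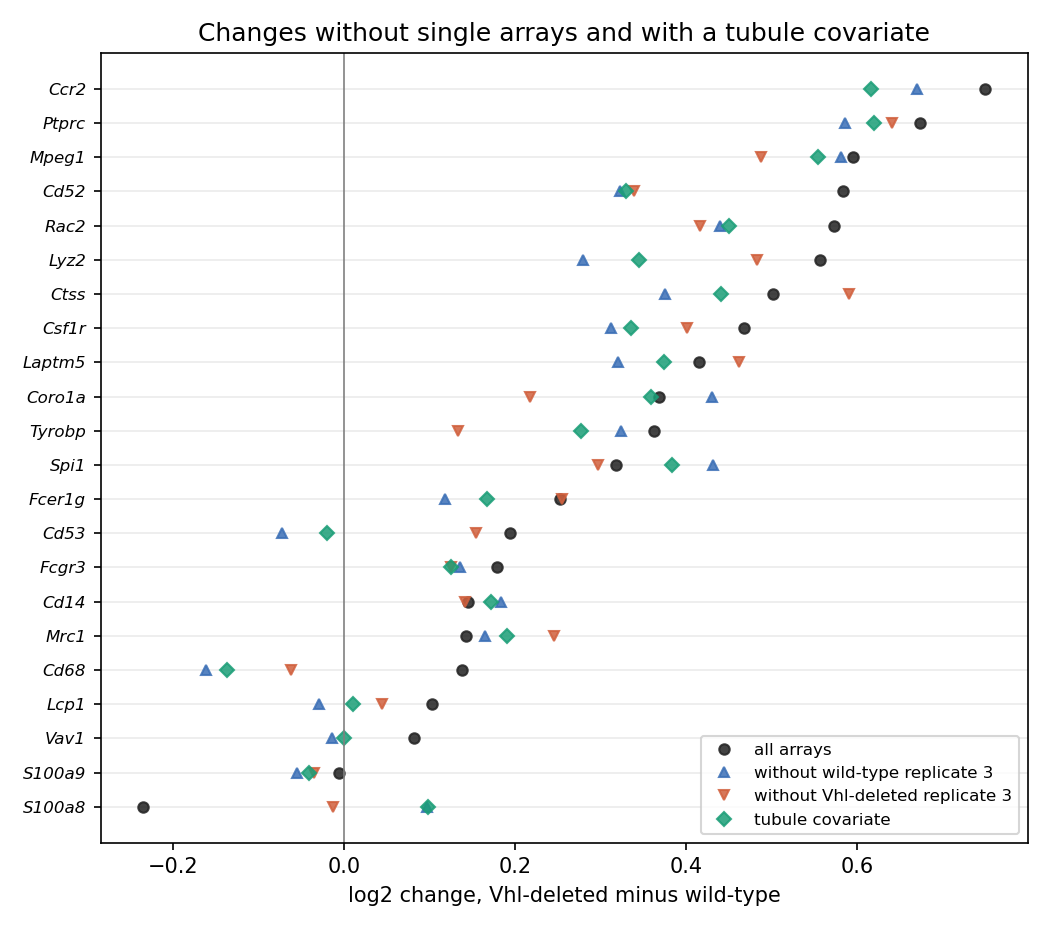
Log2 change of the 22 genes in the fit with all arrays (black circles), with wild-type replicate 3 left out (blue), with Vhl-deleted replicate 3 left out (orange) and with the tubule level as a covariate (green). Ccr2 and Vav1 were under the filter without Vhl-deleted replicate 3. Ptprc lies between 0.58 and 0.67 and Mpeg1 between 0.49 and 0.59, while Cd53, Cd68, Lcp1, Vav1 and S100a8 change sign in at least 1 setting.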

How the data were processed

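Each of 6 mice gave 1 Affymetrix array, grouped from the labels. The deposited values are intensities, MAS5 signals on a linear scale (per the submitters' processing notes, version not given in the sources used here), and each array had a mean of 500.0 once 2% of its values were trimmed at either end. Detection calls were not used. Of 45101 probe sets, 34945 had 1 symbol in the array's annotation table, 932 several and 9160 none, and 64 were controls. Of the first, 34741 were matched to RefSeq by Entrez number. Only those with 1 symbol were tested.

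Signals were taken as log2(signal + 28), which understates changes of dim genes. Probe sets in the upper 50% by mean signal were kept, and the brightest stood for each gene. The test was limma's moderated linear model (lmFit and eBayes with an intensity trend, limma version 3.58.1, R version 4.3.3), with Benjamini-Hochberg adjustment over all 11167 genes at 0.05. The labels call the arrays biological replicates. The test was checked on simulated data with independent noise per gene, without shifts shared by many genes such as those of wild-type replicate 3. The changes put into these data were larger than any change of the 36 genes, so the check does not cover changes of their size.

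All 36 members are named with the brightest probe set, and each other leukocyte list by its genes that passed or, with none, its 3 smallest p-values. Sla, Adgre1, Il34, Nckap1l, Cd209a and Pld4 were named after their values were seen. Members, lists and tests were chosen with earlier results of these data known. The wider lists of neutrophil, T and NK, B cell, podocyte, endothelial and mesangial genes are given in the closing section. The promoter letters were chosen during the work, and no set test was made.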

Additional observations from a re-analysis of the deposited data

How the results depend on the processing

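Of the 22 leukocyte genes in the main fit, none passed in any of the 21 settings that tested it, and the 14 below the filter were tested in 1 fit. The lowest limma adjusted p of any was 0.229 (Mpeg1, with array weights). The count of all genes that passed was 15, and became 8 with the upper 30% of probe sets, 35 with array weights, 39 with the tubule covariate, 9 with a filter on the mean log2 value (chosen after seeing the data), and 1 to 14 when 1 array was left out. With the replicate number as a block it was 1, while the median of the leukocyte genes stayed at 0.34. In that setting 4 leukocyte genes had an unadjusted p under 0.05 in the higher direction (1.59% of all genes). The labels name no batch, and the numbers were not taken as pairs. Deviations from the group means correlated at -0.02, -0.41 and -0.51 for arrays of the same number, and at -0.38 to 0.58 for arrays of different numbers. With 3 arrays per group these values cannot show whether the mice were paired. Leaving out 1 array moved the count of leukocyte genes with an unadjusted p under 0.05 from 4 to between 2 and 9. All were in the higher direction, where the share of all genes lay between 1.47% and 3.14%. The median of the leukocyte genes moved from 0.34 to between 0.25 and 0.50. That of the monocyte and macrophage genes moved from 0.34 to between 0.25 and 0.53. With all arrays, every Vhl-deleted array lay above the controls for 6 of the 36 genes (5.32% of all genes). Without wild-type replicate 1, 2 or 3 this held for 14 (9.89%), 7 (9.7%) and 9 (10.7%). Without Vhl-deleted replicate 1, 2 or 3 it held for 8 (8.83%), 17 (10.7%) and 7 (9.98%). These counts were chosen after seeing the data. With each array scaled to its median, 20 of the 22 were above 0, and with array weights 16. Signs turned with array weights for Cd53 (-0.036), Lcp1 (-0.079), Vav1 (-0.068) and Cd68 (-0.22), and with the tubule covariate for Cd53 (-0.020), Vav1 (-0.00023), Cd68 (-0.14) and S100a8 (0.10). When 1 array was left out, Cd53 ranged from -0.072 to 0.45, Lcp1 from -0.030 to 0.34, Vav1 from -0.014 to 0.19, Cd68 from -0.16 to 0.31, S100a8 from -0.65 to 0.10 and S100a9 from -0.15 to 0.17. The causes were not tested. Dim signal limits the lymphocyte genes, none of which was above the filter.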

Other observations

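Wider lists of the rarer leukocytes had few genes above the filter, and 0 of their genes passed. Of 3 neutrophil, mast cell and platelet genes in the fit, lactoferrin (Ltf) was at 0.15, the platelet integrin Itga2b at -0.10 and the platelet chemokine Pf4 at -0.08. Of the T and NK genes, the granzyme gene Gzma read 134, 176 and 102 on the wild-type arrays and 195, 142 and 464 on the Vhl-deleted ones, a change of 0.71, with Vhl-deleted replicate 3 far above the others. The T cell receptor kinase gene Zap70 was at 0.42 and the perforin gene Prf1, with a wild-type mean under the filter, at 0.24. Of the B and plasma cell genes, Jchain was at -0.15, Ighm at -0.10 and Cd24a, which kidney epithelium also makes, at 0.05.

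Among the resident cells of the tuft, 2 of 15 podocyte genes had a positive change (median -0.30), 9 of 16 endothelial genes did (median 0.04) and 8 of 9 mesangial and smooth muscle genes did (median 0.20). None of these genes passed.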
